A study of Drosophila melanogaster with 17 samples.

Results

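The 7 genes described here encode enzymes of the methionine cycle, of transsulfuration and of glutamine synthesis. They are 6 rows with a given CG number and the row named Gs1, a list drawn up with earlier results of these data known, out of 14659 genes listed for the fat body of Drosophila melanogaster larvae. The members are S-adenosylmethionine synthetase (Sam-S, CG2674, listed as M(2)21AB), glycine N-methyltransferase (Gnmt, CG6188), S-adenosylhomocysteine hydrolase (Ahcy, CG11654, listed as Ahcy13), sarcosine dehydrogenase (Sardh, CG6385), cystathionine beta-synthase (Cbs, CG1753), cystathionine gamma-lyase (Cth, CG5345, listed as Eip55E) and glutamine synthetase 1 (Gs1, CG2718).

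The methionine cycle activates methionine to S-adenosylmethionine, the methyl donor of the cell. It passes the methyl group on, hydrolyses the remaining S-adenosylhomocysteine to homocysteine, and remethylates homocysteine to methionine or sends it through transsulfuration to cysteine. In the fly fat body, an organ that combines functions of liver and adipose tissue, Gnmt consumes S-adenosylmethionine by methylating glycine to sarcosine, which Sardh turns back into glycine. Glutamine synthetase joins ammonia to glutamate.

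Fat body RNA was sequenced from female third-instar larvae that had begun to wander, in 17 libraries of 4 groups. Knockdown larvae carried the RNA interference construct UAS-ChREBPi(52606) against ChREBP, the sugar-sensing transcription factor also called Mondo or Mio in flies, and were reared on 0.7 M sucrose (high sugar, 2 libraries) or on 0.15 M sucrose (control diet, 3 libraries). Wild-type larvae, labelled VDRC w1118, were reared on 0.7 M sucrose (6 libraries) or on 0.15 M sucrose (6 libraries). Every group, wild type included, also carried the driver cgGAL4, which is known to act in blood cells as well as in fat body, and UAS-Dcr2, which strengthens RNA interference. No group carried a control construct, so lower Mondo cannot be told apart from other effects of the construct or its insertion. The labels call the libraries biological replicates without saying whether animals were pooled, so p values measure the spread between these samples, which may be partly technical.

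Values are FPKM (fragments scaled to transcript length and library size), a level per length, and read depth is unknown. Library totals ran between 29778.6 and 62263.5 FPKM, with 6500 to 8360 genes above 0. The knockdown libraries on high sugar had the 2 highest totals, 55960.6 and 62263.5 FPKM. Wild-type replicates 4 to 6 had the lowest totals on the control diet, 29778.6 to 33180.5 FPKM, and the fewest genes on high sugar, 6500 to 6636. Mondo (CG18362), the target of the construct, averaged 0.236 ± 0.0696 FPKM in the knockdown on high sugar (SD, n = 2), against 2.51 ± 0.385 FPKM in wild type on high sugar (SD, n = 6). On the control diet it averaged 0.439 ± 0.116 FPKM in the knockdown (SD, n = 3), against 1.47 ± 0.283 FPKM in wild type (SD, n = 6), and on both diets every knockdown value was below every wild-type one. Within a group, replicates 1 to 3 carried the same barcode (shared-barcode libraries, among them all knockdown libraries), whereas wild-type replicates 4 to 6 each had their own (own-barcode libraries). The labels give no sequencing run or date, and this barcode set was taken as a batch. The 2 knockdown libraries on high sugar stood apart in part of the marker lists. The 8 fat body markers, all above 0, summed to 2385.6 and 2742.5 FPKM there, against 5286.2 to 12300.0 FPKM over the other groups. The 6 salivary gland glue genes summed to 6544.6 and 6749.2 FPKM in them and the 9 midgut markers to 210.8 and 262.3 FPKM, against 5.41 to 5876.0 and 1.07 to 110.4 FPKM over the other groups. The 5 cuticle markers, with Cpr65Az at 0 in all libraries, summed to 81.7 and 164.2 FPKM, against 0 to 90.2 FPKM elsewhere. Muscle markers summed to 10.6 and 17.1 FPKM, against 2.70 to 13.0 FPKM elsewhere. The sums of hemocyte, Malpighian tubule, neuron and gonad markers in these 2 libraries lay within the range of the other groups. Glue genes summed to 5.41 to 18.5 FPKM in own-barcode and 2615.7 to 5876.0 FPKM in shared-barcode wild-type libraries on high sugar. In bulk tissue, fewer cells of a type and less RNA per cell cannot be told apart, and the part of these differences in the results below was not tested.

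**Figure D1:**
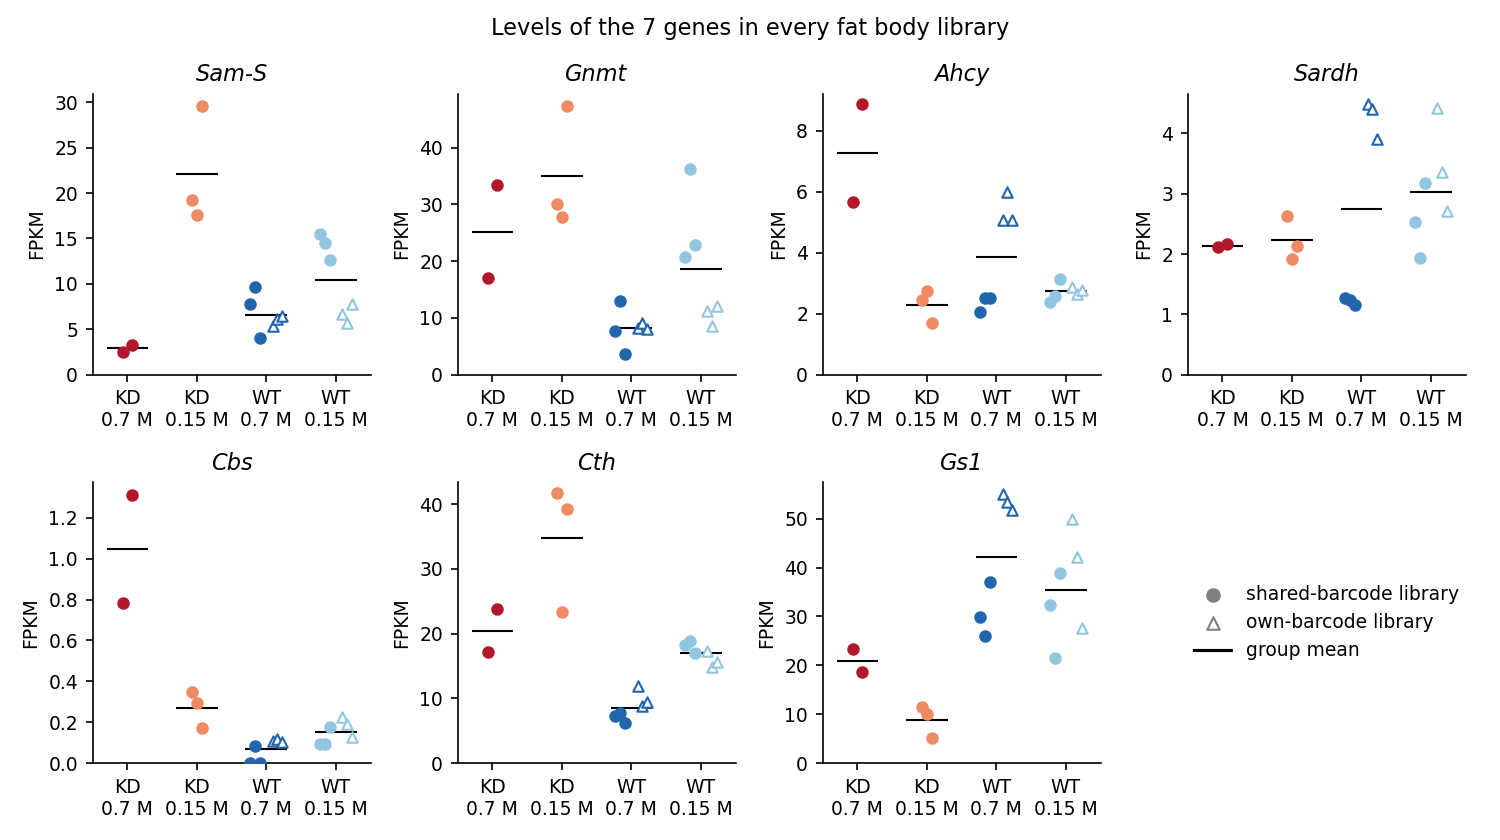
Level of each of the 7 genes (y axis, FPKM) in every library, by genotype and sucrose concentration (x axis; KD, knockdown; WT, wild type). Filled circles are shared-barcode libraries, open triangles own-barcode libraries and bars group means; the 2 knockdown libraries on high sugar have the lowest Sam-S levels and the highest Ahcy and Cbs levels among the shared-barcode libraries.

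Changes were tested as differences of log2(FPKM + 1), which understates the change of low genes, with limma over the 2383 genes that averaged at least 1 FPKM. A change is named as such at an adjusted p under 0.05 and the error given with a log2 change is its standard error. Of the 7 members 6 passed the filter. Cbs, with a mean of 0.248 FPKM, did not pass and was tested in a fit without the filter.

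Sam-S makes S-adenosylmethionine from methionine and ATP. It stood at 2.49 and 3.29 FPKM in the knockdown libraries on high sugar. It was at 17.5, 19.3 and 29.6 FPKM in those on the control diet. In wild type it had a lowest value of 4.07, a median of 6.29 and a highest value of 9.63 FPKM on high sugar, and 5.69, 10.2 and 15.5 FPKM on the control diet. The knockdown libraries were thus the lowest of all on high sugar and the highest of all on the control diet, and they overlapped wild type on neither diet. Sam-S fell with high sugar in the knockdown, by 2.55 ± 0.32 on the log2 scale (limma adjusted p = 9.4e-06), to 0.131 times the control-diet mean. In wild type the change with high sugar was -0.55 ± 0.20 (adjusted p = 0.078) and the groups overlapped. The interaction, the high-sugar effect in the knockdown minus that in wild type, was -1.99 ± 0.38 (adjusted p = 0.00052). Against wild type, Sam-S was lower in the knockdown on high sugar, at -1.21 ± 0.30 (adjusted p = 0.0029). On the control diet the difference was 0.78 ± 0.27 (adjusted p = 0.11; 95% interval 0.21 to 1.35). The shared-barcode libraries alone gave an interaction of -1.587 ± 0.422 (limma adjusted p = 0.012), where 48.8% of all genes were called. There the high-sugar change in wild type was -0.958 ± 0.282 (adjusted p = 0.11), and the diets did not overlap.

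Gnmt, which spends S-adenosylmethionine on glycine, was higher in the knockdown than in wild type on high sugar, where Sam-S was lower. Its level was 16.96 and 33.3 FPKM in the knockdown libraries on high sugar and 27.7, 30.0 and 47.3 FPKM in those on the control diet. In wild type the lowest, median and highest values were 3.66, 8.11 and 13.0 FPKM on high sugar and 8.55, 16.4 and 36.2 FPKM on the control diet. On high sugar both knockdown libraries lay above all 6 wild-type ones, and in the other comparisons the groups overlapped. The knockdown exceeded wild type on high sugar by 1.23 ± 0.46 (limma adjusted p = 0.032). That call rested on single libraries, since without knockdown high-sugar replicate 2 the change was 0.76 (adjusted p = 0.30) and without wild-type high-sugar replicate 1 or 3 it was 1.14 (0.065) or 0.83 (0.070). It was also lost once the relation to transcript length was removed from each library, at 0.90 (adjusted p = 0.11). Gnmt fell with high sugar in wild type, by 0.99 ± 0.31 (adjusted p = 0.042), a call lost on leaving out any 1 of 11 libraries (adjusted p 0.051 to 0.080). The high-sugar effect in the knockdown was -0.50 ± 0.49 (adjusted p = 0.40), and the interaction of 0.49 ± 0.58 was not called (adjusted p = 0.49; 95% interval -0.74 to 1.72). With shared-barcode libraries only, the interaction was 1.195 ± 0.631 and was not called either (limma adjusted p = 0.14). The knockdown on the control diet differed by 0.74 ± 0.41 (adjusted p = 0.35). In the current annotation 75 exonic bases of Gnmt overlap CG43630 on the other strand, and since strand in the counting is not stated, reads there cannot be told apart.

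The ratio of the Gnmt level to the Sam-S level within a library, chosen after the values were seen and therefore given without a test, set the knockdown on high sugar apart, while the other groups overlapped. It was 6.83 and 10.1 in the knockdown libraries on high sugar. In the knockdown on the control diet it was 1.56, 1.58 and 1.60. In wild type it ran from 0.898 to 1.53 on high sugar and from 1.34 to 2.50 on the control diet. Both knockdown libraries on high sugar lay above the other 15, whose highest value was 2.50.

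**Figure D2:**
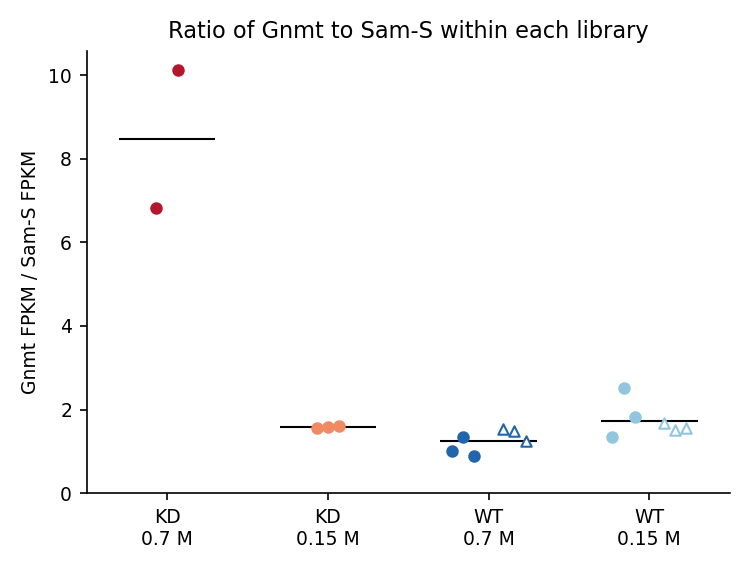
Ratio of the Gnmt to the Sam-S level (y axis, FPKM over FPKM) in each library, by genotype and sucrose concentration (x axis; KD, knockdown; WT, wild type), with circles for shared-barcode and open triangles for own-barcode libraries and bars for group means. The 2 knockdown libraries on high sugar are at 6.83 and 10.1, and the other 15 libraries are between 0.898 and 2.50.

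Ahcy removes the S-adenosylhomocysteine left by methyl transfer. Its level was 5.66 and 8.85 FPKM in the knockdown libraries on high sugar and 1.69, 2.43 and 2.74 FPKM in those on the control diet. The wild-type values were 2.06 at the lowest, 3.79 at the median and 5.99 at the highest on high sugar, and 2.39, 2.71 and 3.14 FPKM on the control diet. The knockdown libraries on high sugar lay above every shared-barcode wild-type library, which reached 2.52 FPKM on high sugar, but 1 own-barcode library (5.99 FPKM) exceeded the lower of them. Ahcy rose with high sugar in the knockdown by 1.31 ± 0.25 (limma adjusted p = 0.00041). It was also higher in the knockdown than in wild type on high sugar, by 1.05 ± 0.24 (adjusted p = 0.0015). The change with high sugar in wild type was 0.31 ± 0.16 (adjusted p = 0.21), and the interaction was 1.01 ± 0.30 (adjusted p = 0.011). Without knockdown high-sugar replicate 2 the interaction was 0.72 (adjusted p = 0.11). On the control diet the knockdown differed by 0.04 ± 0.21 (adjusted p = 0.94; 95% interval -0.41 to 0.50). The high-sugar effect of Ahcy in wild type differed between the barcode sets, by 0.90 ± 0.22 (limma adjusted p = 0.012). Without the own-barcode libraries it was -0.14 ± 0.18 (adjusted p = 0.79), and the interaction was 1.45 ± 0.27 (adjusted p = 0.0019). There the knockdown on high sugar differed by 1.27 ± 0.20 (adjusted p = 0.00045). Of all genes in that fit 48.8% were called for the interaction and 60.9% for the knockdown on high sugar.

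Sardh recovers glycine from the sarcosine that Gnmt makes. It was at 2.11 and 2.16 FPKM in the knockdown libraries on high sugar, and at 1.91, 2.14 and 2.63 FPKM in those on the control diet. In wild type the lowest, median and highest values were 1.15, 2.59 and 4.50 FPKM on high sugar and 1.94, 2.95 and 4.41 FPKM on the control diet. All groups overlapped, and on high sugar the wild-type libraries fell into shared-barcode ones at 1.15 to 1.27 FPKM and own-barcode ones at 3.90 to 4.50 FPKM. No Sardh change was called in the 5 comparisons, with log2 changes between -0.21 ± 0.16 (high sugar in wild type, limma adjusted p = 0.40) and 0.27 ± 0.24 (knockdown on high sugar, adjusted p = 0.33). These fitted differences compare the knockdown with a wild-type level adjusted for barcode set, by a shift taken as equal on both diets. On high sugar the fitted change is thus above 0 although the mean over all wild-type libraries was the higher. That mean was 2.75 ± 1.68 FPKM (SD, n = 6), against 2.14 ± 0.04 FPKM in the knockdown (SD, n = 2). The shift was not equal for Sardh, whose high-sugar effect in wild type differed between the sets by 0.91 ± 0.21 (limma adjusted p = 0.0084). In the shared-barcode libraries alone Sardh was higher in the knockdown on high sugar, by 0.50 ± 0.16 (adjusted p = 0.018), fell with high sugar in wild type, by 0.66 ± 0.14 (adjusted p = 0.039), and had an interaction of 0.63 ± 0.21 (adjusted p = 0.031). Of all genes tested in these libraries 60.9%, 3.14% and 48.8% were called in these 3 comparisons.

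Cbs condenses homocysteine with serine and thereby opens transsulfuration, and it was the lowest of the 7 genes in every group. Its level was 0.782 and 1.31 FPKM in the knockdown libraries on high sugar and 0.174, 0.293 and 0.348 FPKM in those on the control diet. In wild type it ran between 0 and 0.117 FPKM on high sugar, with a median of 0.0929 FPKM, and between 0.0917 and 0.228 FPKM on the control diet, with a median of 0.154 FPKM. It was listed at 0 in 2 shared-barcode wild-type libraries on high sugar, so no fold is given against that group. Both knockdown libraries on high sugar exceeded the other 15 libraries. In the fit without the filter, over 9696 genes, Cbs was higher in the knockdown than in wild type on high sugar by 0.97 ± 0.08 (limma adjusted p = 9.4e-07), a comparison in which 41.1% of these genes were called. It rose with high sugar in the knockdown by 0.68 ± 0.09 (adjusted p = 3.3e-05), in a comparison that called 41.2% of these genes, and the interaction was 0.79 ± 0.10 (adjusted p = 7.8e-05; 31.6% called). The differences for the knockdown on the control diet, 0.19 ± 0.07 (adjusted p = 0.25), and for high sugar in wild type, -0.11 ± 0.06 (adjusted p = 0.35), were not called, in comparisons that called 2.5% and 4.29% of these genes. The pseudocount sets the size of these values: with 0.1 in place of 1 the change in the knockdown on high sugar was 3.09 (adjusted p = 2.5e-06).

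Cth cleaves cystathionine to cysteine, and in flies it is also known as an ecdysone-induced gene. Its level was 17.1 and 23.8 FPKM in the knockdown libraries on high sugar and 23.3, 39.3 and 41.6 FPKM in those on the control diet. The lowest, median and highest wild-type values were 6.15, 8.27 and 11.98 FPKM on high sugar and 14.8, 17.1 and 18.9 FPKM on the control diet. All knockdown libraries lay above all wild-type ones of the same diet, and in wild type all high-sugar libraries lay below all control-diet ones. Cth was higher in the knockdown on high sugar, by 1.25 ± 0.24 (limma adjusted p = 0.00047). It was also higher in the knockdown on the control diet, by 1.03 ± 0.22 (adjusted p = 0.0096). It fell with high sugar in the knockdown, by 0.71 ± 0.26 (adjusted p = 0.026), and in wild type, by 0.93 ± 0.16 (adjusted p = 0.0019). The interaction was 0.22 ± 0.30 (adjusted p = 0.57; 95% interval -0.43 to 0.87). The call in the knockdown across diets was lost without control-diet replicate 1 or 3 or high-sugar replicate 1 of the knockdown (adjusted p 0.081 to 0.22) and with libraries scaled by their median ratio, where the change was -0.38 (adjusted p = 0.22). The call on the control diet was lost without knockdown replicate 3, at 0.92 (adjusted p = 0.059), and with shared-barcode libraries only, at 0.87 (adjusted p = 0.053; 5.43% of all genes called).

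Gs1, the fly's mitochondrial glutamine synthetase, was the only tested member called lower than wild type in the knockdown on the control diet. It stood at 18.6 and 23.2 FPKM in the knockdown libraries on high sugar and at 5.15, 10.0 and 11.6 FPKM in those on the control diet. In wild type the lowest, median and highest values were 26.0, 44.4 and 55.0 FPKM on high sugar and 21.5, 35.5 and 49.8 FPKM on the control diet. On both diets the knockdown libraries were all lower than the wild-type ones, and within the knockdown the high-sugar libraries lay above the control-diet ones. Gs1 was lower in the knockdown on the control diet, at -1.60 ± 0.27 (limma adjusted p = 0.0017), with 0.252 times the wild-type mean. On high sugar the difference was -0.64 ± 0.31 (adjusted p = 0.080; 95% interval -1.29 to 0.01). Gs1 rose with high sugar in the knockdown, by 1.20 ± 0.32 (adjusted p = 0.0049). In wild type the high-sugar effect was 0.24 ± 0.20 (adjusted p = 0.46). The interaction of 0.96 ± 0.38 (adjusted p = 0.047) was called with all libraries and lost on leaving out any 1 of 12 of them (adjusted p 0.0502 to 0.18).

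**Figure D3:**
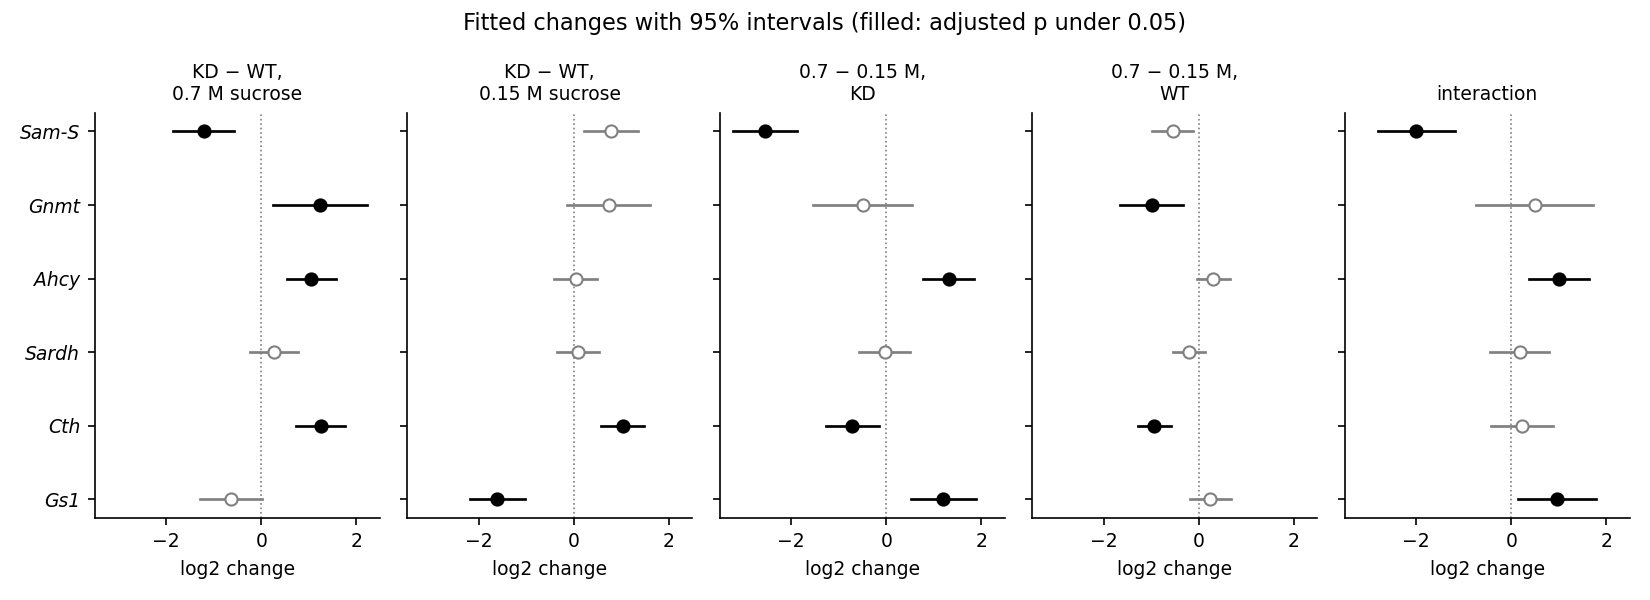
Fitted changes (x axis, difference of log2(FPKM + 1)) of the 6 members that passed the filter, with 95% intervals, in the 5 comparisons (KD, knockdown; WT, wild type; interaction, the high-sugar effect in the knockdown minus that in wild type). Filled points have an adjusted p under 0.05; on high sugar Gnmt, Ahcy and Cth were higher and Sam-S lower in the knockdown, and the largest change was the fall of Sam-S with high sugar in the knockdown, at -2.55.

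By comparison, the knockdown on high sugar changed 4 of the 6 tested members: Gnmt, Ahcy and Cth were higher and Sam-S was lower. In that comparison 60.6% of all tested genes were called, 27.2% higher and 33.4% lower, so the members' share of calls was near the background. The median change was 0.66 for the members and -0.08 for all tested genes. On the control diet the knockdown changed 2 of 6, with Cth higher and Gs1 lower, against 5.62% of all tested genes (3.02% higher, 2.6% lower). The median was 0.42 for the members and -0.03 for all genes. Groups did not overlap for 4 of the 6 tested members on high sugar (58.9% of all tested genes) and for 3 of 6 on the control diet (13%). In the high-sugar knockdown libraries fat body markers made up 4.26% and 4.41% of the summed FPKM, against 14.5% to 26.9% in wild type on high sugar, and the part of this in the calls was not tested.

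High sugar in the knockdown changed 4 of 6 members, with Ahcy and Gs1 higher and Sam-S and Cth lower, where 60.3% of all tested genes were called (29.2% higher, 31.1% lower). The medians were -0.27 for the members and 0.01 for all genes. In wild type high sugar changed 2 of 6, Gnmt and Cth, both lower, against 15.5% of all genes (9.44% higher, 6.08% lower), with medians of -0.38 and 0.02. Diets did not overlap for 3 of 6 in the knockdown (72.9% of all tested genes) and for 1 of 6 in wild type (3.69%). The interaction was called for 3 of 6, Sam-S below 0 and Ahcy and Gs1 above 0, against 51.8% of all genes (23.5% above, 28.3% below), with medians of 0.36 and -0.03. The 2 comparisons with high-sugar knockdown libraries share those libraries, as does the interaction, so their calls are not separate observations.

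The scale of the libraries moved the all-gene median more than 0.1 in the comparisons with the high-sugar knockdown, and in wild type across diets to -0.09 with equal totals, against 0.02 as deposited. For the knockdown on high sugar the median was -0.08 as deposited, 0.24 with median-ratio scaling and -0.22 with equal totals. The share of calls that were higher, over the 5 comparisons, was 44.9% to 60.8% as deposited, 58.2% to 63.8% with median-ratio scaling and 36.7% to 46.2% with equal totals. Relative to the all-gene median of each of these 3 scalings, Sam-S in the knockdown on high sugar was at -1.13, -1.11 and -1.11. On the same relative scale Ahcy was at 1.13, 1.17 and 1.08, Cth at 1.33, 1.41 and 1.28, and Gnmt at 1.31, 1.39 and 1.26.

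The barcode sets of wild type gave different high-sugar effects for part of the genes. Fitted with separate means by barcode set, high sugar lowered Gnmt by 1.69 ± 0.36 (limma adjusted p = 0.012), Sam-S by 0.96 ± 0.25 (adjusted p = 0.030), Sardh by 0.66 ± 0.15 (adjusted p = 0.015) and Cth by 1.24 ± 0.20 (adjusted p = 0.0023) within the shared-barcode libraries. These were 4 of 6 members, against 6.38% of all tested genes. Fitted to the shared-barcode libraries alone, the changes were of the same size but Sardh and Cth only were called, against 3.14% of all genes, with an adjusted p of 0.068 for Gnmt and 0.11 for Sam-S. Within the own-barcode libraries Cth was lower, at -0.62 ± 0.20 (adjusted p = 0.028), and Ahcy higher, at 0.76 ± 0.16 (adjusted p = 0.0020), which made 2 of 6 against 33.4% of all genes. In these libraries the 6 hemocyte markers summed to 0.282 to 0.615 FPKM on high sugar, against 10.5 to 16.1 FPKM on the control diet, and the fat body markers to 10519.6 to 12300.0 FPKM, against 5286.2 to 7185.8 FPKM. The glue genes summed to 5.41 to 18.5 FPKM on high sugar, against 33.3 to 591 FPKM on the control diet, and the part of these differences in the changes was not tested. Gnmt and Sam-S were at -0.28 ± 0.36 and -0.14 ± 0.25 in the own-barcode libraries (adjusted p = 0.59 and 0.71). The difference itself, own minus shared, was called for Ahcy at 0.90 ± 0.22 (adjusted p = 0.012) and for Sardh at 0.91 ± 0.21 (adjusted p = 0.0084), 2 of 6 against 19.8% of all genes. For Gnmt it was 1.41 ± 0.51 (adjusted p = 0.066), and for Sam-S, Cth and Gs1 it lay between 0.42 and 0.82 and was not called (adjusted p 0.11 to 0.48). Of the 6 tested members, Cth was the only one with a called fall in both sets.

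**Figure D4:**
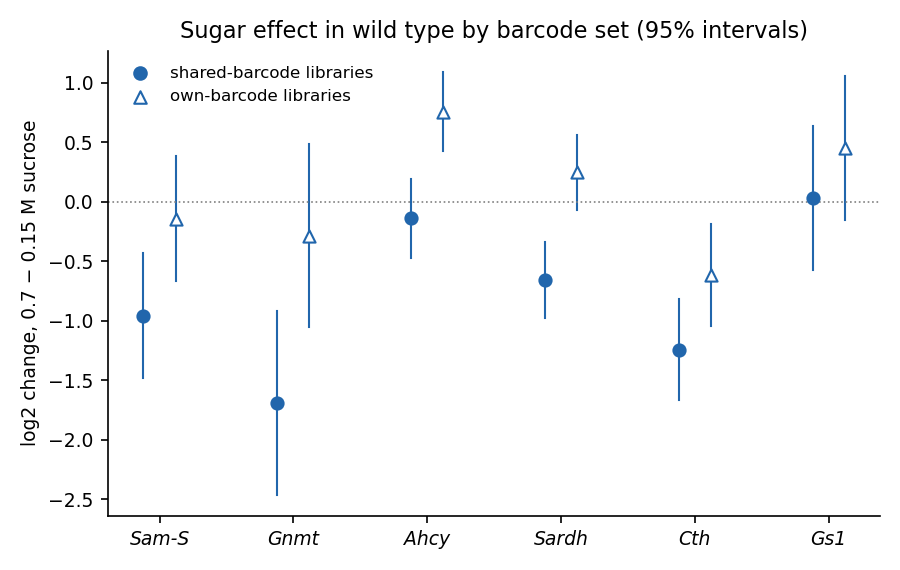
High-sugar effect in wild type (y axis, difference of log2(FPKM + 1), 0.7 M minus 0.15 M sucrose, with 95% intervals) for the 6 tested members, within shared-barcode libraries (filled circles) and own-barcode libraries (open triangles), 3 against 3 in each set. All 6 members lie higher in the own-barcode set, a difference called for Ahcy and Sardh only. Gnmt, Sam-S and Cth are below 0 in both sets, with a fall called in both for Cth only.

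The order of the mean levels differed with genotype. In wild type Gs1 was the highest of the 7 genes, at 42.2 ± 12.8 FPKM on high sugar and 35.4 ± 10.3 FPKM on the control diet (SD, n = 6 each). There Gnmt (18.6 ± 10.3 FPKM), Cth (16.95 ± 1.55 FPKM) and Sam-S (10.5 ± 4.2 FPKM) followed, with ranges that overlapped from each to the next. In the knockdown Gnmt was the highest, at 25.1 ± 11.6 FPKM on high sugar (SD, n = 2) and 35.0 ± 10.7 FPKM on the control diet (SD, n = 3), where Cth was level with it at 34.8 ± 9.97 FPKM (SD, n = 3). On high sugar Gs1 (20.9 ± 3.3 FPKM) and Cth (20.5 ± 4.7 FPKM) were within that spread, and Sam-S, at 2.89 ± 0.57 FPKM, ranked below Ahcy, at 7.26 ± 2.26 FPKM. With the control diet Sam-S, at 22.1 ± 6.5 FPKM, ranked above Gs1, at 8.92 ± 3.36 FPKM, with no overlap between the 2 genes.

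Over the 17 libraries, which share groups and barcode sets, the members' log2 levels were correlated with a Pearson r between -0.77 and 0.86, given as a description. Gnmt and Cth had the highest value (0.86), and Gnmt and Gs1 (-0.77), Cth and Gs1 (-0.72) and Sam-S and Ahcy (-0.68) the lowest. Of all tested genes other than the members, Cyp28a5 (r = 0.97), CG3907 (0.94) and zda (0.94) were most like Sam-S. Most like Ahcy were scu (0.96), Taldo (0.96) and ND-39 (0.96), and most like Gs1 were CG6287 (0.96), CG3397 (0.93) and Fatp3 (0.91). For Cbs they were CG3603 (0.95), CG10814 (0.94) and Fum1 (0.94), and for Cth Miox (0.92), nebu (0.86) and GstD3 (0.85). Most like Gnmt were CG31313 (0.89), Erasp (0.88) and CG6583 (0.87), and most like Sardh pug (0.91), Hayan (0.84) and Aldh7A1 (0.83). In the current annotation Sam-S and Gs1 lie on the same chromosome arm, 2L, with 3 protein-coding genes between them.

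The closest relatives of 2 members were low. Gs2, the other glutamine synthetase, averaged 0.932 ± 0.297 FPKM in the knockdown on high sugar (SD, n = 2), 0.642 ± 0.444 FPKM in the knockdown on the control diet (SD, n = 3), 1.41 ± 0.53 FPKM in wild type on high sugar and 0.985 ± 0.241 FPKM in control-diet wild type (SD, n = 6 each). No Gs2 change was called, and between the genotypes on the control diet it differed by -0.45 ± 0.20 (limma adjusted p = 0.23). The Ahcy-like genes AhcyL1 and AhcyL2 (listed as Ahcy89E) did not pass the filter, with group means of 0.226 to 0.334 and 0.674 to 1.03 FPKM.

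Around the members, 31 further genes of these pathways were listed, and 21 of them passed the filter. In the knockdown on high sugar 3 were higher and 3 lower, which was 28.6% of the 21 against 60.6% of all tested genes. With shared-barcode libraries only, 6 of 20 were higher and 2 lower (60.9% of all genes called): Mtap, pug, CG6415 and Got2 gained a call, and Nmdmc (adjusted p = 0.052) and CG3999 (0.065) lost theirs. Of the folate and glycine genes the methylenetetrahydrofolate dehydrogenase Nmdmc was higher by 0.85 ± 0.33 (limma adjusted p = 0.038). In the same role pumpless (ppl), the H protein of the glycine cleavage system, was lower at -2.01 ± 0.18 (adjusted p = 5.6e-07) and CG3999 at -0.69 ± 0.27 (adjusted p = 0.039). The modifier subunit of glutamate-cysteine ligase (Gclm), which starts glutathione synthesis, averaged 5.81 ± 0.14 FPKM in the knockdown on high sugar (SD, n = 2), against 1.47 ± 0.65 FPKM in wild type (SD, n = 6), a rise of 1.64 ± 0.27 (adjusted p = 0.00011). Of the polyamine genes spermidine synthase (SpdS) was higher by 0.60 ± 0.17 (adjusted p = 0.0057) and ornithine decarboxylase 1 (Odc1) lower at -1.79 ± 0.25 (adjusted p = 3.1e-05).

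On the control diet none of the 21 was higher in the knockdown and 2 were lower, Odc1 at -1.25 ± 0.22 and the mitochondrial aspartate aminotransferase Got2 at -0.96 ± 0.17 (limma adjusted p = 0.0029 for both), against 5.62% of all tested genes called. With shared-barcode libraries only, 4 of 20 were lower (Mtap, Odc1, Got2 and P5CS), against 5.43% of all genes. High sugar in the knockdown raised 7 and lowered 4 of the 21, in a comparison that called 60.3% of all genes. The 7 were methylthioadenosine phosphorylase (Mtap), SpdS, CG6415, Gclm, both glutathione synthetases (Gss1 and Gss2) and pyrroline-5-carboxylate synthase (P5CS), by 0.55 to 1.77, and the 4 were ppl, CG3999, CG5493 and glutamate dehydrogenase (Gdh), at -2.44 to -1.23. In wild type high sugar raised 5 (Mtap, SpdS, Odc1, Gss1 and P5CS, by 0.26 to 0.87) and lowered 5 (serine hydroxymethyltransferase Shmt, ppl, CG5493, Got2 and Gdh, at -0.88 to -0.52), which was 47.6% of the 21 against 15.5% of all genes. Among the shared-barcode libraries 0 rose and 3 fell of 20 tested (ppl, CG5493 and Got2), against 3.14% of all genes. The interaction was called for 6 above 0 (SpdS, Nmdmc, CG6415, Gclm, Gss2 and Got2) and 3 below 0 (CG3999, ppl and CG5493), against 51.8% of all genes. With shared-barcode libraries only, it was called for 8 of 20 above 0 and 2 below 0, against 48.8% of all genes. There Mtap, pug and P5CS gained a call, and Nmdmc (limma adjusted p = 0.071) and CG5493 (0.083) lost theirs. The medians of the 21, in the order knockdown on high sugar, knockdown on the control diet, high sugar in the knockdown, high sugar in wild type and interaction, were 0.15, -0.22, 0.27, -0.09 and 0.40, and those of all tested genes were -0.08, -0.03, 0.01, 0.02 and -0.03.

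**Figure D5:**
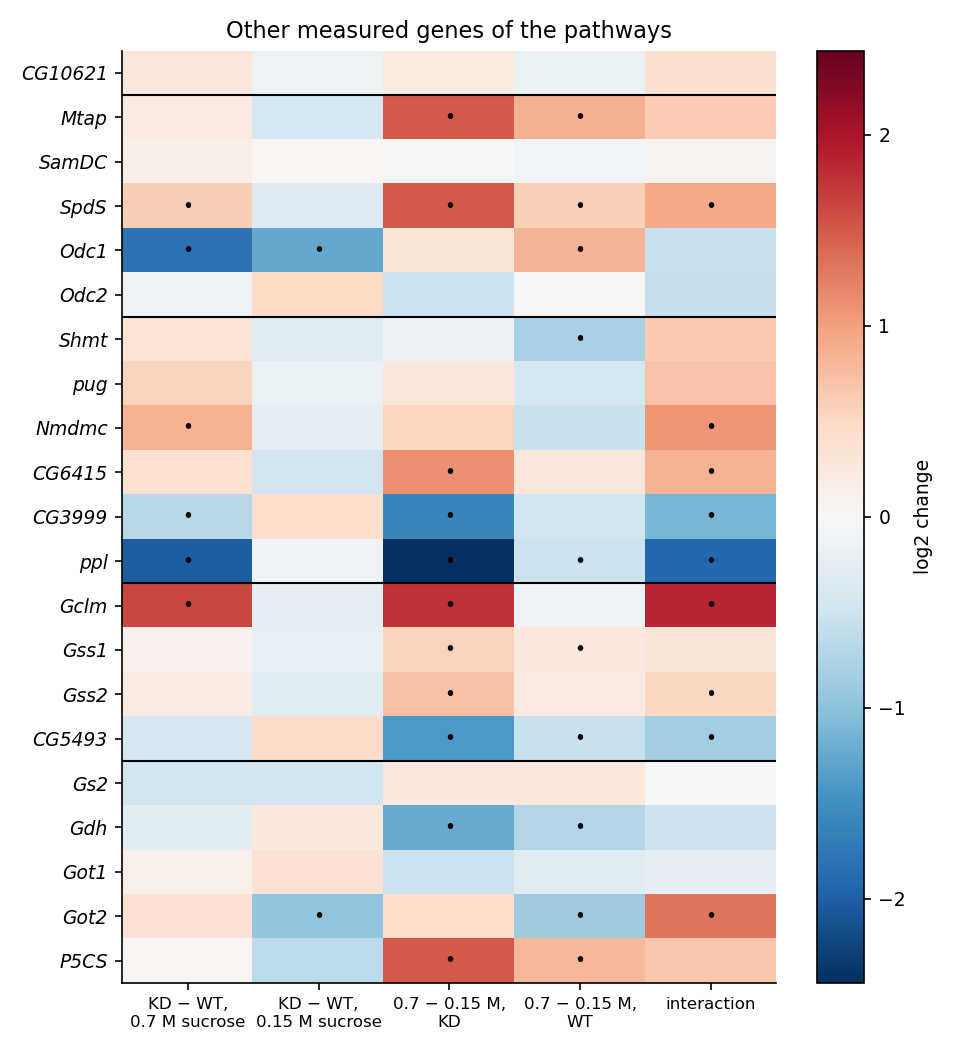
Fitted changes (colour, difference of log2(FPKM + 1), from blue for lower to red for higher) of the 21 other tested pathway genes (rows, grouped by role between the lines) in the 5 comparisons (columns; KD, knockdown; WT, wild type). Dots mark an adjusted p under 0.05; the column of the knockdown on the control diet has 2 dots and that of high sugar in the knockdown 11.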

How the data were processed

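Fat body RNA of 17 larval libraries was sequenced. Per the submitters' processing notes, the tools were Bowtie 0.12.7, TopHat 1.3.2 and Cufflinks 1.1.0 with genome build dm3; the annotation, options and strand are not given in the sources used here. The deposited matrix names no unit. Its values were taken as the authors' FPKM from the tool list and their relation to transcript length, and a further scaling is possible. Read depth is unknown, so no counting interval is given.

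From these values log2(FPKM + 1) was computed. limma 3.58.1 (R 4.3.3) was run on the 2383 genes averaging at least 1 FPKM over the libraries, with 4 group means, a term for the own-barcode set, and trended, robust empirical Bayes, leaving 12 residual degrees of freedom. Tests were 2-sided, with Benjamini-Hochberg adjustment over all tested genes within a comparison and a threshold of 0.05. All knockdown libraries share the set of wild-type replicates 1 to 3, so wild type alone informs that term. The term is taken as equal on both diets, and differences between knockdown and wild type in this fit rest on that assumption. The shared-barcode values come from a fit without wild-type replicates 4 to 6, and within-set effects from a fit of separate means by barcode set. The fits were tested on simulated data with independent noise, a set shift equal on both diets and changes only in wild type on high sugar. A high-sugar effect that differs between barcode sets was not simulated. Alternatives covered the pseudocount, filter, scaling, set term, replicate block, length trend (transcript lengths found for 96.4% of tested genes) and each library left out.

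The members, the 31 pathway genes and the marker lists were chosen with earlier results of these data known. A further pathway gene is not reported here and is left out of the list's counts. Named were all members, Mondo, pathway genes called in a comparison (at most 4 per role and comparison), Gs2, AhcyL1 and AhcyL2, and the 3 genes most correlated with each member. Symbols are current ones, matched for all 38 members and pathway genes; coordinates are not printed because the annotation (BDGP6) differs from the authors' build.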

Additional observations from a re-analysis of the deposited data

Results flagged for a closer look

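The high-sugar effect in the knockdown differed from that in wild type, by the test of the difference itself, for 4 of the 7 genes. The difference on the log2 scale was -1.99 for Sam-S, 1.01 for Ahcy and 0.96 for Gs1, and in the fit without the filter 0.79 for Cbs. Of all tested genes 51.8% were called in this test, and 31.6% in the fit without the filter. The call for Gs1 did not hold on leaving out any 1 of 12 libraries, and that for Ahcy did not hold without knockdown high-sugar replicate 2. The high-sugar effect in wild type differed between own-barcode and shared-barcode libraries, own minus shared, by 0.90 for Ahcy and 0.91 for Sardh. A sample far from the rest of its group was looked for in 14 groups of values with 6 libraries each, and 0 were found; groups of 2 or 3 libraries were not examined.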

How the results depend on the processing

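Over 12 processing alternatives, single-gene results of the 6 tested members kept their direction where called and their side of the threshold in 323 cases, gained a call in 13 and lost one in 14. Leaving out each library in turn gave 478, 1 and 31. No called change reversed, and sign changes between values that were not called were not counted. For high sugar in wild type 2 members were called, and 1 without the filter, without the set term and with the replicate block. It was 3 with equal totals, quantile normalization and separate means by barcode set, and leaving out 1 library gave 1 to 2. For the knockdown on the control diet 2 were called, 1 with shared-barcode libraries only, and 1 to 2 on leaving out a library (1 without knockdown control-diet replicate 3). For the interaction, leaving out a library gave 1 to 3 (1 without knockdown high-sugar replicate 2). The within-set counts of 4, 2 and 2 members held with a pseudocount of 0.1 and median-ratio scaling. Leaving out a high-sugar knockdown library leaves 1 in that group, assumed to vary like the others.

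Whether the replicate numbers pair the samples is not known. Of 18 same-numbered pairs 5 had a correlation over 0.1 (-0.24 to 0.223). Differently numbered pairs were not correlated as a reference, so these values cannot decide the question. With the replicate block, Gnmt lost its calls in wild type (adjusted p = 0.0847) and on high sugar (0.0786), Cth its call in the knockdown across diets (0.0623) and Gs1 its interaction (0.0746). Over all genes the block gave 1344, 91, 1341, 247 and 1118 calls, against 1443, 134, 1436, 370 and 1235, in the order knockdown on high sugar, knockdown on the control diet, high sugar in the knockdown, high sugar in wild type and interaction.

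Adjusted p values follow in parentheses. The Gs1 interaction was also lost without the filter (0.072), with equal totals (0.0767), without the set term (0.124) and in shared-barcode libraries (0.0529). The Gnmt fall in wild type was also lost without the filter (0.105), without the set term (0.0883) and in shared-barcode libraries (0.0679). Calls were gained by Sam-S in wild type (0.0161 with equal totals, 0.0342 with quantile normalization, 0.0333 with separate means by barcode set) and by Gs1 in the knockdown on high sugar (0.0292 with equal totals, 0.04 without the set term, 0.0443 without knockdown control-diet replicate 3). They were also gained by Sardh, in the knockdown on high sugar with median-ratio scaling (0.0381), separate means by barcode set (0.0171) and the length trend removed (0.00662), and in the interaction with the last of these (0.0409) and separate means by barcode set (0.0282). For Cbs, alternatives were added after the data were seen, and its 3 calls held in all 10 processing alternatives and 17 fits without a library.

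Counts over all genes that moved by over 1.5 times were, for high sugar in wild type (370), 78 with shared-barcode libraries, 142 at a minimum mean of 5, 167 when the set term was dropped and 563 with separate means by barcode set. For the knockdown on the control diet (134) they were 242 without the filter, 70 with a minimum mean of 5, 239 with separate means by barcode set and 79 without knockdown replicate 3. For the knockdown on high sugar, high sugar in the knockdown and the interaction they were 3982, 3996 and 3068 without the filter and 472, 485 and 413 with a minimum mean of 5. The cause of these shifts was not tested.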
